A study of Homo sapiens with 32 samples.

Results

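The monocyte surface markers described here were 10 genes (CD14, CSF1R, ITGAM, ITGAX, FCGR1A, FCGR2A, CD33, CD36, CCR2 and CX3CR1) out of 60107 genes in the tables. They were taken by exact gene symbol, each matched 1 row, and all 10 were among the 12406 genes that passed the filter of a mean of at least 10 normalized counts. The data were 3′ mRNA sequencing of THP-1, an established human monocytic leukemia line, and every group descended from THP-1 cells in which ATP-citrate lyase (ACLY), the cytosolic enzyme that makes acetyl-CoA from citrate, had been knocked out. KO was the ACLY knockout line. WT, HA and SA were knockout cells given lentiviral ACLY by puromycin selection, as the wild type, the catalytically inactive H760A or the S455A form that cannot be phosphorylated at that serine. Each of the 4 lines was left unstimulated or given LPS (100 ng/ml for 3 h on the labels, with a lower concentration in the general treatment paragraph of the study's methods), with 4 libraries in each of the 8 groups. There was 1 line for each genotype, so a difference between genotypes and a difference between lines cannot be told apart, and p-values measured the spread between repeats of a line, which may be technical. Whether the KO cells were also transduced, and whether the knockout was 1 clone, was not given in the sources used here.

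Monocytes are circulating phagocytes that are recognised by a set of surface proteins. Some of these bind microbial products (CD14 hands LPS to TLR4 and its partner MD-2), some take growth signals (CSF1R binds M-CSF and IL-34), and some adhere (ITGAM and ITGAX pair with ITGB2 as the complement receptors CR3 and CR4). Others bind antibody (FCGR1A and FCGR2A), sialic acid (CD33), oxidised lipoproteins and fatty acids (CD36), or the chemokines CCL2 (CCR2) and fractalkine (CX3CR1). In blood, classical monocytes carry much CD14 and CCR2, and non-classical monocytes carry more CX3CR1.

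The libraries held 6504099 to 14750815 reads on genes. Values are joint normalized counts, that is reads divided by 1 set of size factors over all 32 libraries. ACLY itself lay at 92.0 to 119 in unstimulated WT, 68.1 to 108 in KO, 68.2 to 135 in HA and 103 to 164 in SA, so the knockout was not visible at the 3′ end of its transcript. A 3′ tag does not read an edited coding sequence, and the vector held only the coding sequence, so this check says nothing of the protein. All 11 further monocytic markers (LYZ, S100A8 and others) passed the filter. Genes listed for other cells were mixed. CD3E, CD3G and XCR1 were among those at 0 in every library. By contrast, the granulocyte precursor genes ELANE (2352 to 19509), PRTN3 (687 to 3582) and AZU1 (348 to 3336) were high. NKG7, listed for NK cells, lay at 117 to 361. The library of SA with LPS replicate 1 stood apart from its group: its root mean square log2 distance from the other 3 was 1.89 against a median of 0.60 over all libraries. Where it moved a value of SA with LPS by over 1.5 times, the value of the other 3 libraries is given too.

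The promoter windows of the 4 members with a called difference or a non-overlapping rise are shown first. CX3CR1, whose non-overlapping fall in KO and HA was not called, is not shown. The part of the promoter letters in any difference was not tested. Each runs from 250 bases before to 50 bases after a RefSeq transcription start (GRCh38.p14), 5′ to 3′ on the gene's strand. Capitals mark matches to a PU.1 core (GAGGAA, the letters bound by the monocytic factor SPI1), a GAS element (TTCNNNGAA), an ISRE (bound by interferon regulatory factors) or a C/EBP site (TTGCNNAA), searched on both strands. CD14 lies on the minus strand at chr5:140633126-140633425, CSF1R on the minus strand at chr5:150086505-150086804 (the downstream of 2 listed starts), ITGAM on the plus strand at chr16:31259725-31260024 and CD33 on the plus strand at chr19:51224830-51225129. The genes themselves, all protein-coding in GENCODE 44, span chr5:140631728-140633700, chr5:150053291-150113372, chr16:31259967-31332892 and chr19:51225064-51243860 in that order.
CD14: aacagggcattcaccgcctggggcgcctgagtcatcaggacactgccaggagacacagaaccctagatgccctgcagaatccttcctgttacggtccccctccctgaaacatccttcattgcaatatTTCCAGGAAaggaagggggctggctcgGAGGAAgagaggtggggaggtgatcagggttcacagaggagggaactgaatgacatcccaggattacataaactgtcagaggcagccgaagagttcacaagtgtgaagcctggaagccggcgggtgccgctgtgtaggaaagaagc
CSF1R: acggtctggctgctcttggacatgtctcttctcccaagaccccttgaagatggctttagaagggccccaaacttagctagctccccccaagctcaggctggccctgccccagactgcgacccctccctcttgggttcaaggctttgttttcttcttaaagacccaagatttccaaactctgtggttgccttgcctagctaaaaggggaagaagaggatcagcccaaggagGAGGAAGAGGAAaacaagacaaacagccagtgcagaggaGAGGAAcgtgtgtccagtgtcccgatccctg
ITGAM: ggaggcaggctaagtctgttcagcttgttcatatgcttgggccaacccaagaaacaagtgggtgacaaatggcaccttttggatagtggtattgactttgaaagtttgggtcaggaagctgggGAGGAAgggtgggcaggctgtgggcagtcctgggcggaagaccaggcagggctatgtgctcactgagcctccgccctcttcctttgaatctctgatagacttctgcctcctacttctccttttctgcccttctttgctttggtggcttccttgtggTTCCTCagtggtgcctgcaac
CD33: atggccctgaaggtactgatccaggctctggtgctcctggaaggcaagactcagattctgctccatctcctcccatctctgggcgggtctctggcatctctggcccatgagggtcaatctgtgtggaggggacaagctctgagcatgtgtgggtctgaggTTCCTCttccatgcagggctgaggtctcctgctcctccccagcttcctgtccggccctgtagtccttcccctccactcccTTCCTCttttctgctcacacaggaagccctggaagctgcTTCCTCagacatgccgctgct

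CD14 held 1 GAS match and 1 PU.1 core match, CSF1R 3 PU.1 core matches, ITGAM 2 and CD33 3, and no match overlapped another motif. A PU.1 core was present in at least 1 window of 8 of the 9 members with an entry and in 11 of their 17 windows, against 27.9% of all 35116 windows of this length. GAS matches stood in 4 of the 17 windows, 1 each for CD14, FCGR1A, CD36 and CX3CR1, against 7.66% of all windows. No member window held an ISRE, which 3.57% of all windows held. The C/EBP letters were found in 1 of the 17 windows, that of CCR2, against 10.5% of all windows. These are letter matches, not bound sites, and genes with several listed starts had more chances to hold one. Some windows of CD36 overlapped and shared a PU.1 core site, so the windows are not all distinct. The upstream CSF1R window held no match. For CX3CR1, the windows of listed starts 1 and 2 held none, and that of start 3 held 1 GAS and 1 PU.1 core match. SPI1 itself averaged 903 ± 297 (SD, n = 4) joint normalized counts in unstimulated WT and 1006 ± 389 in KO, and IRF8 935 ± 474 and 1326 ± 1008. The WT and KO libraries overlapped for both.

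**Figure D1:**
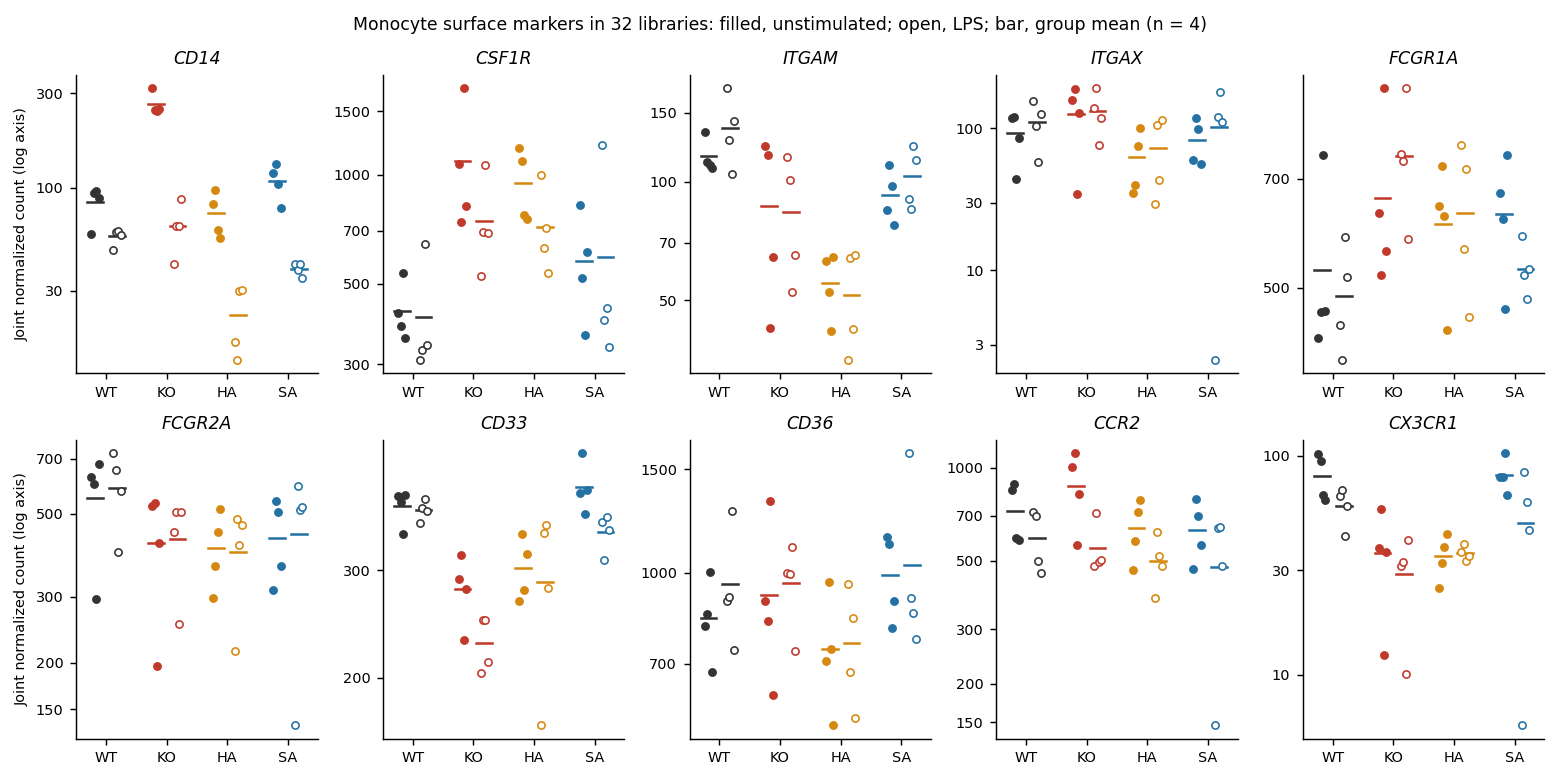
Joint normalized counts (log axis) of the 10 members in all 32 libraries, by line. Filled points are unstimulated and open points LPS-treated libraries, and bars are group means of 4 libraries. The 4 unstimulated KO libraries lie above all others for CD14 (244 to 319), while in SA with LPS a single library lies far below the rest for ITGAX (2.35), CX3CR1 (5.87), FCGR2A (136) and CCR2 (147).

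CD14 was called in more comparisons than any other member. It was higher in KO than in WT and HA at rest and lower after LPS in KO, HA and SA. Unstimulated WT libraries held 58.1, 94.2, 96.5 and 88.8 joint normalized counts of CD14 (84.4 ± 17.9, SD, n = 4). Unstimulated KO libraries held 319, 247, 244 and 250 (265 ± 35.9), each above every WT library. HA libraries held 82.5, 97.2, 61.0 and 55.4 (74.0 ± 19.3) and SA libraries 119, 132, 104 and 78.4 (108 ± 23.0). Both sets overlapped WT.

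After LPS, CD14 was at 48.6, 59.8, 60.6 and 57.9 in WT (56.7 ± 5.56) and at 40.9, 63.9, 63.9 and 87.4 in KO (64.0 ± 19.0). It was at 16.5, 13.4, 30.1 and 30.4 in HA (22.6 ± 8.94) and at 41.1, 38.4, 41.2 and 34.7 in SA (38.9 ± 3.06). In order of the mean, the groups ran KO, SA, WT, HA, KO with LPS, WT with LPS, SA with LPS, HA with LPS. Neighbours from SA down to WT with LPS overlapped. KO at the top did not overlap SA, and at the lower end WT with LPS, SA with LPS and HA with LPS did not overlap one another.

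In unstimulated cells, CD14 was 3.15-fold higher in KO than in WT (log2 fold change 1.66, SE 0.26, limma adjusted p = 6.56e-05) and higher in KO than in the catalytically inactive HA line by 1.85 (SE 0.26, limma adjusted p = 3.48e-04). HA and WT differed by -0.20 (95% interval -0.72 to 0.33). CD14 was 1 of 10 members called in KO against WT, where 2.9% of all genes tested were called (adjusted p below 0.01), 0 of 10 in HA against WT (2.52%), and 1 of 10 in KO against HA (0.226%). Fitted on the compared groups alone, the KO against HA difference had a limma adjusted p of 0.028. Some genes of maturing macrophages were also higher in KO, and by less in HA. The summed level of 10 such genes was 109 to 139 in WT libraries, 394 to 665 in KO and 130 to 298 in HA. Of the 5 that passed the low-count filter, 2 were called higher in KO (GPNMB, a lysosomal glycoprotein, and MARCO) and 1 in HA. In WT, MARCO lay near the floor of 3 reads. MRC1 was at 0 in 30 of 32 libraries. The part of this list in the CD14 difference was not tested. In bulk libraries, fewer cells carrying a transcript and less transcript per cell cannot be told apart.

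With LPS, CD14 fell to 0.238 of its unstimulated level in KO (log2 fold change -2.07, SE 0.26, limma adjusted p = 5.97e-06), to 0.305 in HA (-1.72, adjusted p = 1.47e-04) and to 0.370 in SA (-1.43, adjusted p = 1.69e-03). In WT it stood at 0.686 of the unstimulated level (-0.54, 95% interval -1.07 to -0.02, limma adjusted p = 1.0), and the libraries overlapped. It was the single member called in KO, HA and SA, where 0.572%, 0.403% and 0.492% of all genes were called. Few genes were called lower after LPS: 0.0725% in KO, 0.0161% in HA and 0.0242% in SA, that is 9, 2 and 3 genes of 12406, and none in WT, where 0.25% were called, all of them higher. Unstimulated and LPS-treated libraries did not overlap for CD14 in KO (as for 3.45% of all genes), HA (3.49%) and SA (4.18%), nor for CD33 in SA, and overlapped for every member in WT (2.6% of all genes did not). The response differed from that of WT by -1.53 in KO (SE 0.36, 95% interval -2.27 to -0.79, limma adjusted p = 0.835), by -1.17 in HA (adjusted p = 1.0) and by -0.89 in SA (adjusted p = 0.997). None of these differences of response passed over all genes, where 0.00806% were called for KO and 0% for HA and SA (limma, with 142 and 457 genes at unadjusted p below 0.05), so the response of CD14 was not shown to differ between lines. In SA the call was lost without replicate 1 (adjusted p = 0.0104) or replicate 2 (0.0139) of unstimulated SA, and the calls in HA and SA were lost when those groups were fitted alone (adjusted p = 0.0973 and 0.0919). Without replicate 1 of SA with LPS, the library that stood apart, the SA value was -1.46 (adjusted p = 3.31e-03).

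Between the lines with LPS, CD14 was at 0.388 of the WT level in HA with LPS (log2 fold change -1.37, SE 0.26, limma adjusted p = 1.13e-03), and KO with LPS did not differ from WT with LPS by more than the interval from -0.40 to 0.65. KO against HA with LPS was 1.496 (SE 0.26), and its limma adjusted p of 0.0134 missed the threshold, which 0.00806% of all genes passed. CD14 was the 1 member whose KO and HA libraries did not overlap, at rest (4.98% of all genes) and with LPS (5.09%). The KO against HA difference with LPS passed without replicate 1 of KO with LPS (limma adjusted p = 8.78e-03). SA with LPS lay below WT with LPS in all libraries (-0.53, 95% interval -1.06 to -0.01, and -0.56 without replicate 1 of SA), a pattern of no overlap that 2.61% of all genes showed, and no gene was called there. HA against WT with LPS lost its call in the fit of those groups alone (adjusted p = 0.0481) and without the library farthest from its group in every group (adjusted p = 0.0111).

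No other gene of LPS recognition was called. Of 10 genes listed (TLR4, LY96, which encodes MD-2, LBP, TLR2, the adaptor MYD88 and others), 8 passed the filter and none was called in any of the comparisons, by limma at an adjusted p below 0.01. TLR4 was at 10.7 to 34.0 joint normalized counts in unstimulated WT, 19.5 to 45.1 in KO and 12.4 to 19.4 in HA, and its means after LPS were 13.4, 12.6 and 5.56. LY96 averaged 13.2 ± 6.22 for WT, 29.6 ± 16.9 for KO and 13.1 ± 7.03 for HA at rest. With LPS, 3 of the 8 lay higher in every KO library than in WT, as 13.9% of all genes did not overlap there: LY96 (16.8 to 35.0 against 7.13 to 16.7), TLR2 (282 to 339 against 197 to 267) and the adaptor TIRAP (22.2 to 31.4 against 12.1 to 21.98). The median log2 fold change of the 8 was 0.65 in that comparison, beside -0.01 over all genes. The 2 tested genes whose log2 values followed CD14 most closely over the 32 libraries were C1QA, a chain of complement C1q (Pearson r = 0.81), and MMP9, a gelatinase (r = 0.79). These libraries share groups and treatments, so r describes both, and a gene picked by r will tend to share the LPS change of CD14. C1QA fell with LPS as well, from 82.6 ± 15.9 to 11.7 ± 4.54 in KO, from 41.3 ± 23.3 to 5.31 ± 2.81 in HA and from 48.9 ± 27.9 to 8.11 ± 2.32 in SA (log2 fold changes -2.78, -2.61 and -2.32, limma adjusted p = 7.41e-04, 1.96e-03 and 7.71e-03), so CD14 and C1QA were the 2 genes called lower in HA.

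**Figure D2:**
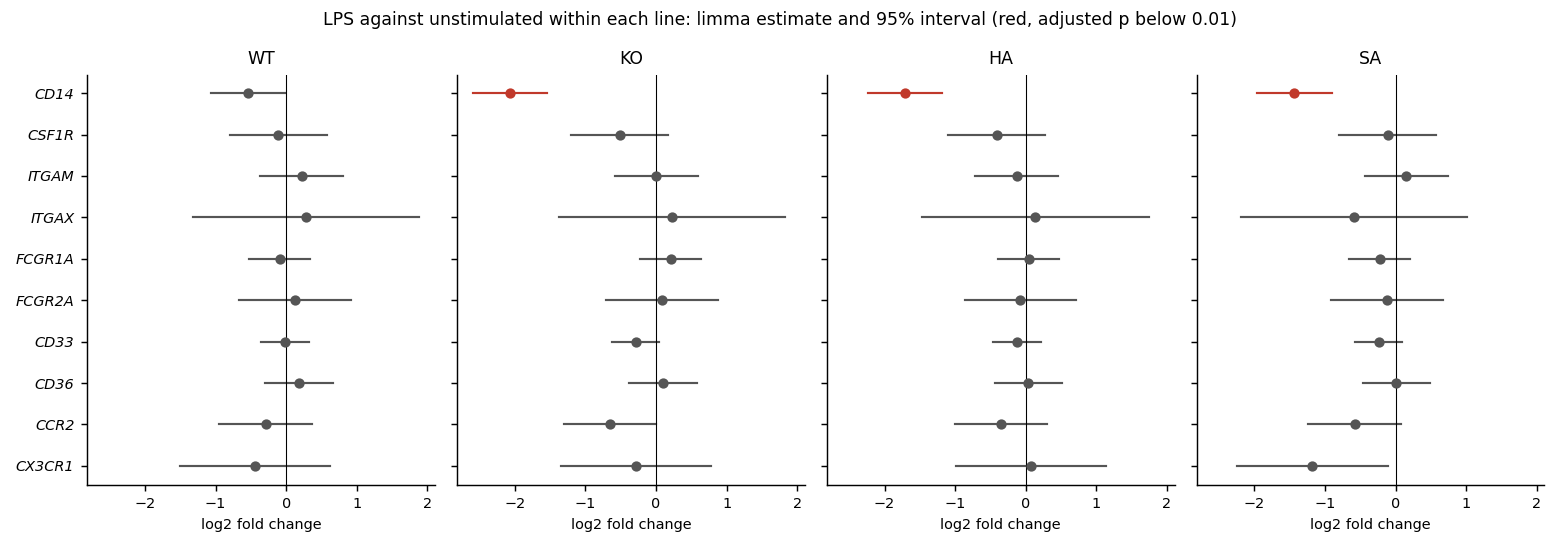
LPS against unstimulated within each line, as limma log2 fold changes with 95% intervals for the 10 members. CD14 was called in KO (-2.07), HA (-1.72) and SA (-1.43) and stood at -0.54 in WT, whereas the intervals of most other members cross 0.

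CSF1R, the receptor tyrosine kinase that keeps monocytes and macrophages alive, lay above WT in every unstimulated KO and HA library, by amounts that missed the threshold over all genes. Its joint normalized counts were 415, 382, 535 and 354 in unstimulated WT (422 ± 79.6, SD, n = 4). They were 1069, 740, 1737 and 821 in KO (1092 ± 452) and 1185, 1090, 773 and 755 in HA (951 ± 219). Every KO and HA library lay above every WT library, a pattern of no overlap that 12% of all genes showed for KO and 17.6% for HA. SA overlapped WT, at 824, 518, 362 and 611.

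The fitted differences in CSF1R were 1.31 on the log2 scale for KO (SE 0.34, limma adjusted p = 0.0173) and 1.16 for HA (SE 0.34, adjusted p = 0.0352). With LPS they were 0.90 (adjusted p = 0.126) and 0.86 (adjusted p = 0.171), and 1 WT library with LPS (646, against 308, 329 and 338) lay within the range of the KO and HA libraries with LPS. Replicate numbers were taken to pair WT with KO libraries, on the basis of correlations in these same data. In a fit of those groups blocked on the number, CSF1R passed for KO against WT unstimulated (SE 0.13, limma adjusted p = 8.59e-05) and with LPS (SE 0.11, adjusted p = 9.42e-05). The block raised the share of all genes called to 5.83% and 10.7%, and the count of members to 2 and 3. CSF1R differed between KO and HA by 0.15 (95% interval -0.54 to 0.83). LPS moved it by -0.52 in KO (95% interval -1.20 to 0.17) and by -0.11 in WT (-0.80 to 0.58).

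Among 14 other CSF receptors, ligands and transcription factors of monocytes, 11 passed the filter. FLT3, a receptor tyrosine kinase of progenitors related to CSF1R, was called in KO against WT with LPS (78.3 ± 14.9 against 19.4 ± 8.73 joint normalized counts, log2 fold change 2.08, limma adjusted p = 2.67e-03). The ligand CSF1 stayed under the filter, at 0 to 9.66 in unstimulated libraries and, with LPS, at 7.13 to 10.6 for WT, 7.52 to 61.5 for KO, 3.01 to 15.6 for HA and 0 to 31.3 for SA. The 2 genes most like CSF1R over the 32 libraries were ADAP2 (Pearson r = 0.96) and AKR1A1 (r = 0.95).

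ITGAM (CD11b) was lower in HA than in WT with LPS. WT libraries held 134, 112, 110 and 108 joint normalized counts (116 ± 11.8, SD, n = 4) and HA libraries 62.9, 52.6, 41.9 and 64.4 (55.4 ± 10.5). With LPS, WT was at 173, 128, 105 and 143 (137 ± 28.7) and HA at 35.3, 64.2, 42.2 and 65.2 (51.7 ± 15.3). The groups did not overlap in either condition, as for 17.6% of all genes unstimulated and 13.5% with LPS, and KO spread over both (124, 117, 42.5 and 64.4 unstimulated).

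With LPS, ITGAM in HA was at 0.375 of WT (log2 fold change -1.41, SE 0.29, limma adjusted p = 2.64e-03), which with CD14 made 2 of 10 members called where 2.02% of all genes were. Unstimulated, the difference of -1.07 missed the threshold (adjusted p = 0.0234). KO against WT was -0.54 (95% interval -1.12 to 0.05) and with LPS -0.75 (-1.34 to -0.16). The LPS call was lost in 4 of the 8 fits that left out 1 of the compared libraries: WT with LPS replicate 1 (adjusted p = 0.0179) or 4 (0.0116), and HA with LPS replicate 1 (0.0199) or 3 (0.0131). It was lost as well when those groups were fitted alone (0.0169).

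ITGAX (CD11c) varied widely between libraries of a group, and no difference in it was called. Its group means ran from 62.8 ± 31.2 in HA to 132 ± 47.9 joint normalized counts in KO with LPS, and the interval of KO against WT ran from -1.29 to 1.92 on the log2 scale. In SA with LPS it was at 2.35 in replicate 1, which is 2 reads and under the floor of 3, and at 120, 179 and 110 in the others. The difference of SA from WT with LPS was -0.98 with that library and 0.35 without it, neither of them called.

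Of 14 other integrins and integrin ligands, 12 passed the filter. ITGAL (CD11a), which like ITGAM and ITGAX pairs with ITGB2, went the other way from ITGAM in HA: it was called higher in KO and HA against WT in both conditions, with 528 ± 58.1 joint normalized counts for WT, 1148 ± 146 for KO and 1169 ± 121 for HA (log2 fold changes 1.12 and 1.15, limma adjusted p = 1.52e-05 and 2.04e-05). ITGA6, a laminin receptor chain, was called lower in HA (7.43 ± 6.88 against 33.2 ± 13.1, log2 fold change -2.42, adjusted p = 5.42e-03). ICAM1, a ligand of these integrins, was called higher with LPS in KO (1.65) and SA (1.71). The genes most like ITGAM were DDB1 (Pearson r = 0.87) and SETD7 (r = 0.86), and those most like ITGAX were PLBD1 and RMC1 (both r = 0.96).

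**Figure D3:**
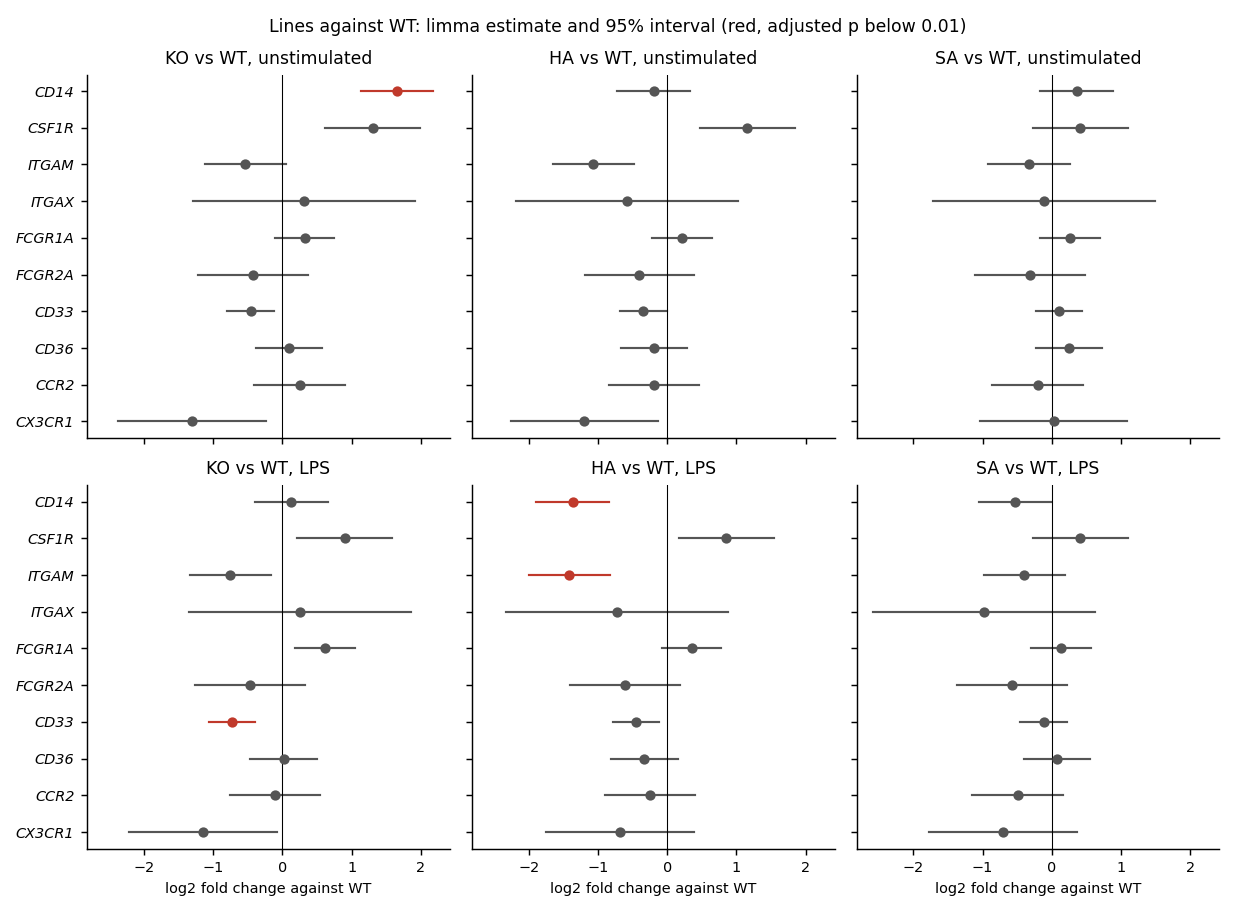
KO, HA and SA against WT, unstimulated (top) and with LPS (bottom), as limma log2 fold changes with 95% intervals for the 10 members. CD14 in KO (1.66), CD33 in KO with LPS (-0.73), and CD14 (-1.37) and ITGAM (-1.41) in HA with LPS were called, and in SA no member was.

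Neither Fc receptor was called in any comparison without the block. FCGR1A (CD64), the high-affinity IgG receptor, averaged 528 ± 152 joint normalized counts in WT at rest, 659 ± 183 in KO, 609 ± 122 in HA and 628 ± 120 in SA. With LPS it averaged 487 ± 81.1, 751 ± 141, 630 ± 146 and 529 ± 42.6. KO against WT with LPS was 0.62 (SE 0.21, limma adjusted p = 0.0819), with 1 WT library (585) just above the lowest KO library (581), and this passed with the replicate block (SE 0.12, limma adjusted p = 3.64e-03). FCGR1A shares most of its sequence with FCGR1B, which had group means of 204 to 365, so reads may have been split between them. FCGR2A (CD32a), the low-affinity receptor, averaged 549 ± 172 in WT, 418 ± 157 in KO and 405 ± 95.4 in HA, and intervals of all its comparisons with WT crossed 0. Of 14 other genes of the Fc receptor family and its signalling found in the tables, 9 passed the filter. LYN, the kinase that phosphorylates the receptor tails, was called higher in KO (2785 ± 385 against 1716 ± 175, log2 fold change 0.69, limma adjusted p = 3.38e-04), and FCER1G, the common gamma chain through which FCGR1A signals, likewise (2606 ± 366 against 1794 ± 196, 0.53, adjusted p = 9.03e-03). The genes most like FCGR2A were HNRNPA1P48 (Pearson r = 0.95) and HDDC2 (r = 0.94), and EFR3A was among those most like FCGR1A (r = 0.82).

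CD33, an inhibitory sialic acid-binding lectin of myeloid cells, was lower in KO than in WT with LPS. Unstimulated WT libraries held 396, 388, 344 and 399 joint normalized counts (382 ± 25.5, SD, n = 4), KO libraries 290, 318, 230 and 280 (279 ± 36.5) and HA libraries 267, 343, 279 and 319 (302 ± 35.4). With LPS, WT was at 358, 380, 392.4 and 375 (376 ± 14.2), KO at 203, 248, 248 and 212 (228 ± 23.7) and HA at 167, 346, 356 and 281 (287 ± 86.7). KO and HA lay below WT in every library in both conditions. Of all genes, 12% (KO) and 17.6% (HA) did not overlap unstimulated, and 13.9% and 13.5% with LPS. For HA the margin was narrow. Its highest library was at 343.3 against a lowest WT library of 344.2 unstimulated, and at 355.5 against 358.1 with LPS. Overlap was judged on the joint scale alone.

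CD33 in KO with LPS was at 0.605 of WT (log2 fold change -0.73, SE 0.16, limma adjusted p = 4.74e-03), the 1 member called there, where 3.47% of all genes were called. Unstimulated it was -0.46 (95% interval -0.79 to -0.12, adjusted p = 0.133), and in HA -0.34 and -0.45 with LPS, neither called. The adjusted p lay close to the threshold: it rose to between 0.0107 and 0.0254 in 6 of the 8 fits that left out 1 compared library (any WT with LPS library, or KO with LPS replicate 1 or 4) and to 0.0129 in the fit of those groups alone, and with the replicate block it was 9.18e-04. SA against WT was 0.10 (95% interval -0.23 to 0.44). Among 13 other Siglecs and the phosphatases they recruit, 6 passed, and SIGLEC1, the sialoadhesin of macrophages, was called higher in KO and HA in both conditions (624 ± 118 in KO and 387 ± 182 in HA against 136 ± 16.9 in WT, log2 fold changes 2.18 and 1.38, limma adjusted p = 1.65e-05 and 5.84e-03). CD33 was most like FOXO1 (Pearson r = 0.83) and RFX2 (r = 0.83) over the 32 libraries.

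CD36, the scavenger receptor for oxidised LDL and long-chain fatty acids, was not called in any comparison. Its means ran from 742 ± 170 joint normalized counts in HA to 1032 ± 380 in SA with LPS, where replicate 1 was at 1596 and the other 3 at 773 to 906. KO against WT was 0.09 (95% interval -0.39 to 0.57) and with LPS 0.02 (-0.46 to 0.50). MARCO, another scavenger receptor, was the gene called among the 8 of 13 listed scavenger and lipid uptake genes that passed: 46.7 ± 15.1 in KO and 30.1 ± 13.1 in HA against 4.85 ± 3.73 in WT (log2 fold changes 3.18 and 2.51, limma adjusted p = 9.07e-05 and 2.17e-03). CD36 was most like AP1S2 (Pearson r = 0.84) and NFATC2IP (r = 0.83).

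CX3CR1, the fractalkine receptor, lay lower in every KO and HA library than in WT, by amounts that missed the threshold. WT libraries held 102, 94.2, 65.9 and 63.0 joint normalized counts (81.2 ± 19.6, SD, n = 4), KO libraries 37.7, 56.9, 12.3 and 36.4 (35.8 ± 18.3) and HA libraries 24.7, 32.4, 38.3 and 43.8 (34.8 ± 8.17). SA was at 79.9, 79.7, 103 and 66.0. With LPS, WT was at 65.3, 69.5, 42.8 and 58.7, KO at 31.3, 32.6, 10.03 and 41.3, and HA at 36.5, 39.6, 33.1 and 34.8.

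No KO or HA library reached a WT library of the same condition, a pattern of no overlap that 12% (KO) and 17.6% (HA) of all genes showed unstimulated and 13.9% and 13.5% with LPS. For CX3CR1, the spread between libraries was wide and no difference was called: -1.31 in KO (95% interval -2.37 to -0.24, limma adjusted p = 0.195), -1.20 in HA (-2.26 to -0.13, adjusted p = 0.156), -1.15 in KO with LPS (adjusted p = 0.24) and -0.68 in HA with LPS (adjusted p = 0.554). With the replicate block KO against WT reached limma adjusted p = 0.0147 unstimulated and 0.0138 with LPS. In SA, LPS moved CX3CR1 by -1.18 with replicate 1 (5.87 counts) and by -0.38 without it.

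CCR2, the receptor for CCL2 that brings monocytes out of the marrow, overlapped between all lines, at 726 ± 161 in WT, 875 ± 241 in KO, 638 ± 143 in HA and 630 ± 141 in SA. After LPS the means were 593 ± 135, 548 ± 110, 498 ± 99.8 and 477 ± 233. The LPS estimates were negative in all 4 lines (-0.29, -0.65, -0.35 and -0.58) and none was called. That of SA rested on replicate 1 with LPS (147 counts, against 480 to 643 in the other 3) and was -0.09 without it. Of 13 other chemokine receptors and ligands of CCR2 and CX3CR1, 6 passed. CCL8, a ligand of CCR2, was called higher with LPS in WT (4.17), KO (4.24) and SA (4.17), and CX3CL1, the ligand of CX3CR1, had a count in 1 library alone. CCL2 varied within groups, from 13.7 to 604 in unstimulated KO. CCR2 was most like HECA and TGFBI (both Pearson r = 0.88), and RTL8B was the gene most like CX3CR1 (r = 0.89).

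SA carried ACLY with its catalytic residue intact. No member was called in SA against WT in either condition, and 0% of all genes were (limma, with 445 and 646 genes at unadjusted p below 0.05). No member failed to overlap unstimulated (4.22% of all genes did) and CD14 was the 1 that did with LPS. Unstimulated, the widest interval was that of ITGAX (-1.72 to 1.49) and the narrowest that of CD33 (-0.23 to 0.44). Over the 10 members, the median log2 fold change against WT was 0.17 in KO, -0.27 in HA and 0.07 in SA unstimulated, beside -0.03, -0.02 and -0.01 over all genes tested, and 6, 2 and 6 of them were positive. With LPS the medians were -0.04 in KO, -0.53 in HA and -0.45 in SA, beside -0.01, -0.03 and -0.02 over all genes, and 5, 2 and 3 were positive. The SA median with LPS was -0.04 without replicate 1 of SA with LPS.

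Within groups, the libraries differed from one another along 2 sets of members. In the libraries farthest from their group (replicate 3 of WT and KO and replicate 1 of HA and SA, with and without LPS), ITGAX, FCGR2A and CCR2 were below the group mean in all 8 and ITGAM and CX3CR1 in 7, while CSF1R and FCGR1A were above it in all 8 and CD36 in 7. As deviations from the group mean over 32 libraries, all 10 pairs within the set of 5 were positively correlated (Pearson r 0.43 to 0.91), as were the 3 pairs within the set of 3 (0.69 to 0.82), and all 15 pairs between the sets were negative (-0.90 to -0.39). Without replicate 1 of SA with LPS the ranges were 0.53 to 0.89, 0.76 to 0.78 and -0.85 to -0.28. CD14 followed neither set, with r from -0.12 to 0.23 with the other 9, and CD33 was weakly on the side of the set of 5 (0.02 to 0.36). The sets were formed after their values were seen, the libraries share groups and are not independent points, and these values are a description without a test. The deviations correlated with those of sequencing depth by -0.43 (CD36) to 0.29 (CX3CR1), and the part of depth was not tested. The 8 farthest libraries were picked for their distance after the data were seen, so a fit without them tends to have a smaller spread by construction. Leaving out those 8 libraries raised the share of all genes called from 2.9% to 4.96% in KO against WT and from 2.52% to 17.6% in HA against WT, and with LPS to 7% and 4.72%. It brought CSF1R past the threshold against WT in KO (limma adjusted p = 7.98e-05, and 7.16e-04 with LPS) and HA (9.24e-05, and 1.66e-03 with LPS) and ITGAM and CX3CR1 in unstimulated HA (2.05e-03 and 2.06e-03). With library weights, which count a library less the farther it lies from its group, 4 members were called in KO against WT (8.66% of all genes), 3 in HA against WT (21.2%) and 3 in KO against WT with LPS (8.96%).

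**Figure D4:**
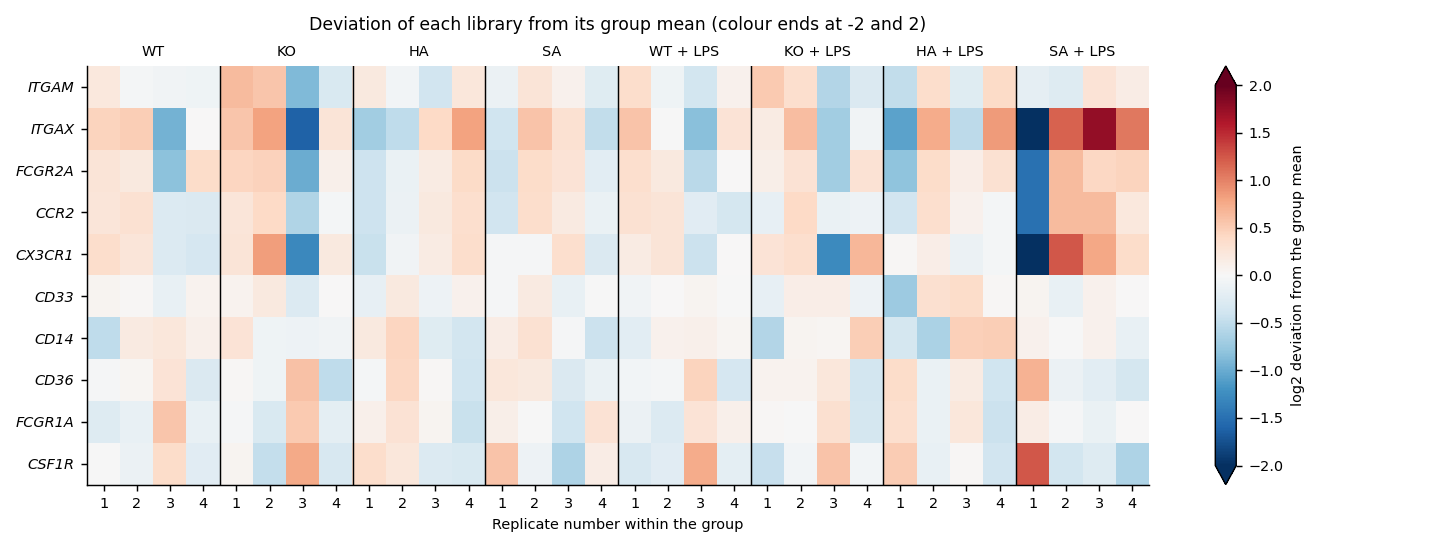
Deviation of each library from its group mean (log2, colour from -2 to 2) for the 10 members (rows), with the 4 replicates of each group side by side. Where ITGAX, FCGR2A and CX3CR1 are blue, as in replicate 3 of KO and replicate 1 of SA with LPS, CSF1R is red, whereas CD14 follows neither set.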

How the data were processed

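The libraries were QuantSeq 3′ mRNA-seq (FWD). The authors used Bbduk for trimming, STAR for mapping (GRCh38) and HTSeq-count for counting, and deposited normalized counts scaled by DESeq2 size factors, separately for each line. These values were whole multiples of 1 read (100.000% of values whole within 0.05 reads), so the reads were recovered and rescaled by median-of-ratios size factors over all 32 libraries (11384 genes with reads in every library). Genes with a deposited mean of at least 10 were kept (12406 of 60107). limma 3.58.1 (R 4.3.3) fitted log2(joint normalized count + 1) with 8 group means and a mean-variance trend, with Benjamini-Hochberg adjustment over all genes in each comparison and a threshold of 0.01. The fit was tested on simulated data. Fold changes are on that log2 scale and understate those of low genes. Precision is limited by 4 libraries a group and by 6504099 to 14750815 reads a library.

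The deviations of same-numbered WT and KO libraries from their group means correlated in every pair (r 0.124 to 0.723 over KO against WT in both conditions and LPS within WT and KO), so the numbers were taken to pair those libraries. They did not do so in the comparisons with HA or SA. The labels do not say what a number marks. Members and gene lists were chosen with earlier results of these data known. Named genes were the members, up to 3 called genes of each partner list by size of change, the 2 genes most like each member by Pearson r over the libraries, and ACLY. Some genes that this rule names are not reported here. Other genes named (such as SPI1, IRF8, TLR4, LY96, CSF1, CCL2 and GPNMB) were chosen after their values were seen. Gene symbols and positions came from the tables and GENCODE 44, and promoter windows from RefSeq (GRCh38.p14), which held 9 of the 10 members. ITGAX had no entry. Alternatives were another scale (deposited or TMM), a pseudocount of 5, no filter or a mean of at least 50, only the groups compared, the replicate block, library weights, each library left out, and, chosen after seeing the data, voom on the recovered reads and leaving out the library farthest from each group.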

Additional observations from a re-analysis of the deposited data

Results flagged for a closer look

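Of 80 groups of 4 libraries (10 members in 8 groups), 7 had a library whose gap to its nearest neighbour exceeded 0.829 of the group's range, Dixon's 95% critical value, where chance flags about 1 in 20. All were high on the scale of joint normalized counts, to which the rule was applied. The log2 values used in the fits give low libraries more room to stand out. As log2 deviations from the group mean, SA with LPS replicate 1 lay at -3.996 for ITGAX (others 1.057 to 1.753). For FCGR2A it lay at -1.487 (others 0.416 to 0.629). The direction of the flags therefore depends on the scale. CD14 in KO replicate 1 was at 318.6 joint normalized counts against 244 to 250.03 in the others. The KO level without it was still above every WT library. CSF1R was at 646 in WT with LPS replicate 3 (others 308 to 338) and at 1213 in SA with LPS replicate 1 (others 335 to 429). CD36 was at 1596 in that same SA library (others 773 to 906). FCGR1A was at 754 in WT replicate 3 (others 428 to 466), ITGAM at 134 in WT replicate 1 (others 108 to 112), and CCR2 at 712 in KO with LPS replicate 2 (others 481 to 503). Of these, 4 were in CSF1R, FCGR1A or CD36 in libraries that lay farthest from their group. No difference between lines in the LPS response of a member passed its test.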

How the results depend on the processing

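No called difference of a member reversed under any alternative, while differences that were not called and lay near 0 changed sign under some, such as ITGAX with LPS in SA (-0.61 to 0.61), CCR2 in SA against WT (-0.21 to 0.06) and CD36 in KO against WT (-0.06 to 0.10). The TMM scale, a pseudocount of 5, no filter, a mean of at least 50 and voom changed no call among 150 values (10 members in 15 comparisons), and the deposited scale changed 1. Numbers of members called moved as follows, and are not read as results about the members. The share of all genes called moved with the setting too. In KO against WT it went from 2.9% to 5.83% with the block and only the groups compared. In HA against WT it went from 2.52% to 21.2% with library weights. The share is not given here for every setting. With the replicate block and only the groups compared they were 2 (KO against WT), 3 (KO against WT with LPS) and 0 in HA against WT with LPS, KO against HA, and LPS in HA and SA, and the block in the fit of all groups gave 2 in KO against WT and 1 in KO against HA with LPS. Only the groups compared, without a block, gave 1 in HA against WT and 0 in KO against WT with LPS, HA against WT with LPS, KO against HA, and LPS in HA and SA. The fit has fewer libraries there. Library weights gave 4, 3, 3 and 1 in KO against WT, HA against WT, KO against WT with LPS and KO against HA with LPS. Without the 8 libraries farthest from their group the counts were 2, 3, 2 and 1 in those comparisons and 0 for LPS in SA. On the deposited scale KO against HA with LPS gave 1. Leaving out 1 library gave 0 to 1 in KO against WT with LPS, 1 to 2 in HA against WT with LPS, 0 to 1 in KO against HA with LPS and 0 to 1 for LPS in SA. The cause of the other shifts was not tested. The replicate block changed no other call in KO against WT or LPS within WT and KO than those of CSF1R and FCGR1A. Over all genes tested, counts of calls moved by over 1.5 times in several comparisons. KO against WT went from 360 to 179 with only the groups compared, 723 with the block as well, 1074 with weights and 615 without the 8 libraries, and with LPS from 430 to 1333, 1112 and 868 under the last 3 of these. HA against WT went from 313 to 196, 8, 2632 and 2188 under the same 4 and to 503 on the deposited scale, and with LPS from 250 to 133, 7, 1163 and 585. KO against HA went from 28 to between 0 and 1015, and with LPS from 1 to between 0 and 242. LPS within a line went from 31 to between 14 and 126 in WT, 71 to between 21 and 121 in KO, 50 to between 33 and 84 in HA and 61 to between 3 and 181 in SA. SA against WT went from 0 to 4, and with LPS to 12, with weights. Count tests on the recovered reads (DESeq2, edgeR) were planned and were not run.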

Other observations

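Other monocytic genes, named after their values were seen, were also measured beside the surface markers. LYZ (lysozyme) averaged 4919 ± 1019 joint normalized counts in unstimulated WT, 18823 ± 6666 in KO and 15166 ± 3560 in HA (SD, n = 4 each, log2 fold changes 1.89 and 1.62, limma adjusted p = 4.25e-04 and 3.20e-03), and 4582 ± 1438 in SA. FCN1 (ficolin-1, a lectin of classical monocytes) went the other way, at 39.8 ± 10.6 in WT and 1.77 ± 2.45 in KO (limma adjusted p = 8.85e-04, with KO libraries at 0 to 5.20), and at 25.5 ± 10.5 in SA. Of the 11 monocytic markers, 3 were called higher and 1 lower in KO against WT (2.9% of all genes were called) and 2 higher in HA (2.52%). With LPS, 2 were called higher and 1 lower in KO (3.47%) and 2 higher in HA (2.02%). Genes of another lineage were also measured: the summed level of 5 B-cell markers was 70.1 to 107 in WT and 152 to 214 in KO, with PAX5 called higher (log2 fold change 1.70, limma adjusted p = 2.05e-03) and MS4A1 at 0 in 28 of 32 libraries. Its part in the marker differences was not tested.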
